A study of Homo sapiens with 36 samples.

Results

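FOXA1, FOXA2 and FOXA3, HNF4A and HNF4G, GATA6, CEBPA and CEBPB are transcription factors that set endodermal, hepatic and lung epithelial identity, and their transcripts were followed in A549 cells through a long exposure to the cytokine IL-1β and its withdrawal. The 8 genes were chosen by symbol, through their Ensembl identifiers, out of 63677 genes listed in each count table. A549 is an established human lung adenocarcinoma line, used here as 1 line. Cells were either kept untreated or given 1 ng/ml of IL-1β in the medium and collected at days 6, 15 and 21 of exposure, and further cells were collected at days 6, 15 and 30 after the cytokine had been removed, each time next to untreated cells of the same collection. All groups shared the same serum-containing medium and regular splitting. With 3 libraries in each of 12 groups, 36 libraries of bulk RNA were sequenced, and the labels call the replicates biological without saying whether they were separately started cultures, so p-values measure the spread between these libraries.

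FOXA proteins are pioneer factors, which bind their sites in closed chromatin and open it for other factors in gut, liver and lung epithelium. HNF4A and HNF4G are orphan nuclear receptors that maintain the hepatocyte and enterocyte programs, and in liver HNF4A works in a network with FOXA and C/EBP proteins. GATA6 acts in early endoderm and in lung epithelium, CEBPA in the maturation of alveolar and hepatic cells, and CEBPB in the acute phase and cytokine response.

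HNF4A fell at all 6 time points, by 3.69- to 13.5-fold, and was the member with the largest response. FOXA1 fell at 4 of the 6 time points, by about the fold change of 2 that was required. The other 5 members with enough counts to test, FOXA2, HNF4G, GATA6, CEBPA and CEBPB, did not pass both thresholds at any time point, and FOXA3 was at the limit of detection in every library. Both thresholds here are an adjusted p under 0.05 (the quasi-likelihood test of edgeR, adjusted by Benjamini-Hochberg over 19180 tested genes), and a log2 fold change beyond 1. Of the 7 tested members, 2 fell at day 6, where 1.25% of all tested genes fell, 1 at day 15, where 2.30% fell, and 2 at day 21, where 2.06% fell. After withdrawal, 2 were lower at day 6, where 0.725% of all genes were, 1 at day 15, where 0.36% were, and 2 at day 30, where 0.464% were. No member was higher past both thresholds at any time point.

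The regions just upstream of FOXA1 and HNF4A are printed because these were the members that fell. The letters are RefSeq sequence of GRCh38.p14, which is a later build than the GRCh37 of the counts, and each run holds the 250 bases before a start site on the gene's own strand, 5′ to 3′. Of the 8 members, 6 had an entry, and HNF4A had 2 start sites. Only the first is shown, because the window of the second, chr20:44400989-44401238, held 0 matches to any sequence searched for here. Capitals mark matches, on either strand, to the E-box CAGGTG bound by the SNAI and ZEB repressors or to the GATA core AGATAA.
FOXA1, chr14:37595250-37595499, minus strand: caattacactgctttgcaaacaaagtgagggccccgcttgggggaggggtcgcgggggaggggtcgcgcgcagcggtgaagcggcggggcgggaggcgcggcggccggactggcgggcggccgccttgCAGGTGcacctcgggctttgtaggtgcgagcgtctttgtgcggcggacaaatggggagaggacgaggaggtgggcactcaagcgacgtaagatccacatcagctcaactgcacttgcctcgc
HNF4A, first start, chr20:44355449-44355698, plus strand: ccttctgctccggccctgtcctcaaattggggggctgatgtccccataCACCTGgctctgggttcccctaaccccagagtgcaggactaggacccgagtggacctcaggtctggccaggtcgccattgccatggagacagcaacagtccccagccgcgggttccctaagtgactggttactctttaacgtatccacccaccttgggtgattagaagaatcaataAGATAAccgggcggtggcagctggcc
FOXA1 carried 1 E-box, from -122 to -117 relative to the start. The first HNF4A start had 1 E-box, from -202 to -197, and 1 GATA core, from -26 to -21. Over 35116 promoter windows of this length, 17.5% held the E-box and 9.17% the GATA core. Searches for the FOX core TGTTTAC, the HNF4 site CAAAGTCCA, the C/EBP palindrome TTGCNNCAA and an NF-κB site (GGG and TTCC, 3 bases apart) found no match in the 8 promoter windows of the members, against 2.98%, 0.325%, 1.62% and 5.67% of all windows. The matches are letters in a window and not evidence of binding, and the counts do not tell from which HNF4A start the reads came.

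The libraries held between 9116032 and 23570026 counts on genes. In 11 of them, 11.8% to 24.6% of the counts lay on mitochondrial genes, against 5.61% to 7.75% in the other 25. These 11 libraries comprised 6 controls and 5 libraries of exposed cells, 8 of them were labelled replicate 2, and 8 came from the collections after withdrawal. Among 10 markers of the line, the keratins KRT8 and KRT18 and the dehydrogenase ALDH1A1 were abundant, with 1352764, 730276 and 2449476 counts in all. KRT19, with 31 counts in all, and EPCAM, with 434, were low. The summed level over the 10 markers was 12067 to 19322 CPM in control libraries. Of 11 markers of other cell types, 4 had at most 3 counts in any library, and the T cell marker CD3E had 0 counts in all. ACTA2, CD14 and COL1A1 on that list had 7512, 3586 and 962 counts in total. Of 12 type II cell markers, 5 had at most 3 counts in any library, and SFTPA1 and SFTPA2 had 1 count each in total. LPCAT1, ABCA3 and MUC1 on that list had 124073, 11864 and 3889. NKX2-1, the master factor of lung epithelium, had 0 to 3 counts per library and 44 in all, so it was at the limit of detection and could not be compared.

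In untreated cells the members spanned a wide range of levels. Per kilobase of exon, CEBPB was the most abundant, with a median of 72.1 CPM per kb over the 18 control libraries (28.8 to 114), followed by FOXA2 at 18.3 (12.5 to 32.2). HNF4A stood at 1.68 CPM per kb (0.510 to 2.76), GATA6 at 1.25 (0.810 to 2.03) and FOXA1 at 0.915 (0.555 to 1.45), and the ranges of these neighbours in the order overlapped. CEBPA at 0.367, HNF4G at 0.293 and FOXA3 at 0.0437 CPM per kb were the least abundant. FOXA2 transcripts were the main FOXA transcripts in both control and exposed cells.

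**Figure D1:**
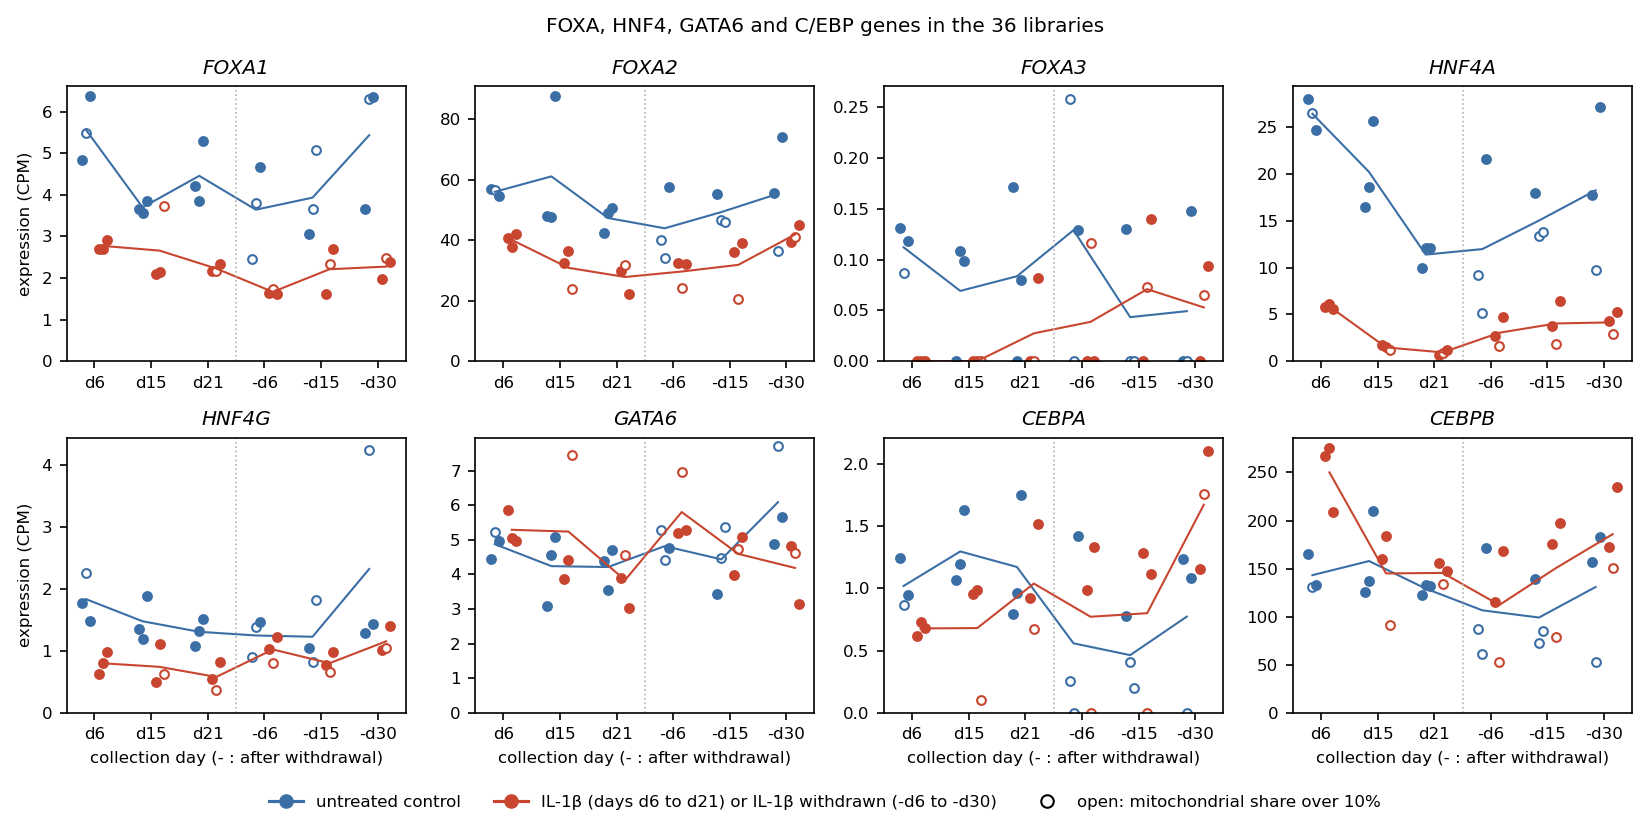
Expression of the 8 members in CPM (counts relative to the scaled library size, vertical axis, each panel with its own scale from 0) in the 36 libraries at days 6, 15 and 21 of IL-1β and days 6, 15 and 30 after withdrawal (horizontal axis, written -d6, -d15 and -d30). Points are libraries, lines join the means of 3, and open points are the 11 libraries with a mitochondrial share over 10%. The HNF4A points of exposed cells lie below those of the controls at each of the 6 time points. In time order, 11.2%, 13.9%, 15.2%, 5.24%, 4.90% and 5.11% of all tested genes did so at each time alone.

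FOXA1 (ENSG00000129514, GRCh37 chromosome 14, 38058757 to 38065264, minus strand) is the pioneer factor best known for opening chromatin in epithelial and hormone-responsive cells. At day 6 its levels were 4.84, 5.48 and 6.38 CPM in control cells and 2.69, 2.70 and 2.92 CPM in cells with IL-1β. At day 21 they were 4.22, 3.86 and 5.30 CPM in control and 2.17, 2.17 and 2.34 CPM in exposed cells. At both days all exposed libraries lay below all control libraries, as did 11.2% of all tested genes at day 6 and 15.2% at day 21. The log2 fold changes were -1.003 (SE 0.25, adjusted p = 0.0140 by edgeR) at day 6 and -1.0001 (SE 0.25, adjusted p = 0.00990) at day 21, so both calls sat right at the required fold change, and they were lost in 13 and 10 of 14 alternative settings. At day 15 the values were 3.67, 3.58 and 3.86 CPM in control and 2.10, 2.15 and 3.72 CPM in exposed cells. The third exposed library of day 15, which was 1 of those with a high mitochondrial share, overlapped the controls, and the log2 fold change of -0.50 (SE 0.25) did not pass (adjusted p = 0.305). Without the 11 libraries of high mitochondrial share it was -0.80 with an adjusted p of 0.0389, still short of the fold change.

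FOXA1 was lower at 2 of the 3 collections after IL-1β was withdrawn. At day 6 after withdrawal the levels were 2.45, 3.80 and 4.68 CPM in control and 1.64, 1.74 and 1.62 CPM in previously exposed cells, with a log2 fold change of -1.16 (SE 0.26, edgeR adjusted p = 0.0100). At day 30 after withdrawal they were 3.66, 6.30 and 6.34 CPM in control and 1.97, 2.47 and 2.39 CPM in previously exposed cells, with a log2 fold change of -1.24 (SE 0.25, adjusted p = 0.00759). The groups did not overlap at either of these times, as held with IL-1β below control for 5.24% and 5.11% of all tested genes. At day 15 after withdrawal the values were 3.05, 3.67 and 5.08 CPM and 1.60, 2.33 and 2.70 CPM, again without overlap, as for 4.90% of all tested genes. The log2 fold change of -0.81 did not pass (edgeR adjusted p = 0.141). Each of the 18 pairs of an exposed library and the control library with the same replicate number had the lower value in the exposed one. Such counts of pairs are a description, as the fit did not treat the numbers as pairs, and they were not taken over all genes. The FOXA1 log2 fold change was below 0 at all 6 time points, as for 9.23% of all tested genes. With any of the 3 replicates left out the FOXA1 calls were lost, with adjusted p between 0.0636 and 0.439 at day 30 after withdrawal, while the log2 fold change there stayed between -1.40 and -1.16.

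FOXA2 (ENSG00000125798, chromosome 20, 22561636 to 22566093, minus strand) acts beside FOXA1 in foregut and liver and was the more abundant of the pair. At day 15 it was measured at 47.8, 47.8 and 87.6 CPM in control and 32.6, 36.2 and 23.7 CPM in exposed cells. The exposed libraries were all below the controls, as were 13.9% of all tested genes at that day, and the log2 fold change was -0.98 (SE 0.25, edgeR adjusted p = 0.0133), which passed on p and fell just short of the fold change. Without replicate 2 the day 15 value was -1.24 and past both thresholds, and without replicate 3, which held the high control library, it was -0.47 (adjusted p = 0.576).

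At the other times FOXA2 lay in the same direction without passing. At day 6 the values were 56.7, 56.5 and 54.7 CPM in control and 40.6, 37.7 and 42.0 CPM in exposed cells, and at day 21 42.2, 48.9 and 50.8 CPM and 29.8, 31.7 and 22.0 CPM. The groups did not overlap at either day, as held with IL-1β below control for 11.2% and 15.2% of all tested genes. The log2 fold changes were -0.48 (SE 0.25, edgeR adjusted p = 0.490) and -0.77 (SE 0.25, adjusted p = 0.0690). After withdrawal the log2 fold changes were -0.57, -0.63 and -0.41 at days 6, 15 and 30. By day 30 after withdrawal the values were 55.5, 36.5 and 74.0 CPM in control and 39.5, 41.2 and 45.0 CPM in previously exposed cells. These overlapped through the control library of replicate 2, which had a high mitochondrial share. Without the 11 libraries of high mitochondrial share the day 15 and day 21 values were -0.83 and -0.86 (adjusted p = 0.00842 and 0.00675), past the p threshold and short of the fold change. FOXA2 was lower in 17 of 18 pairs of libraries, which is a description. Its log2 fold change was below 0 at all 6 time points, as for 9.23% of all tested genes.

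FOXA3 (ENSG00000170608, chromosome 19, 46367247 to 46377055, plus strand), the third FOXA gene and mainly hepatic, had 0 to 3 counts in every library. Its 34 counts in all were made up of 24 in the 18 control libraries and 10 in the 18 libraries of exposed cells, and 7 control and 12 exposed libraries had 0. A count of 3 was taken as the most that a true 0 allows, so each group was within that limit, and FOXA3 was not tested.

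**Figure D2:**
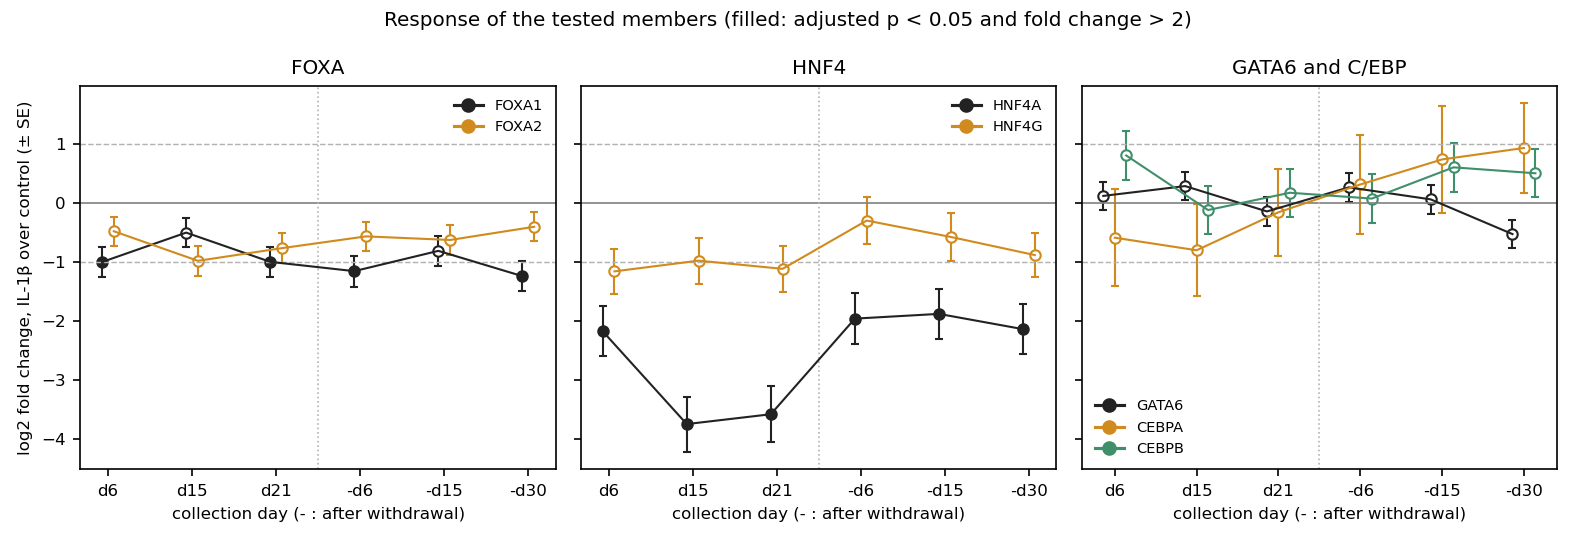
Log2 fold change of IL-1β over control (vertical axis, error bars are the SE of edgeR's fit) for the 7 tested members at the 6 time points (horizontal axis, -d marks days after withdrawal). Filled points pass both thresholds, and dashed lines mark a fold change of 2. HNF4A is the member furthest from 0 at every time point, at -3.75 on day 15 and -2.14 at day 30 after withdrawal.

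HNF4A (ENSG00000101076, chromosome 20, 42984339 to 43061485, plus strand) had the largest response of the members. At day 6 its levels were 28.0, 26.5 and 24.8 CPM in control and 5.80, 6.14 and 5.60 CPM in exposed cells. At day 15 they were 16.4, 18.6 and 25.6 CPM in control and 1.75, 1.51 and 1.14 CPM in exposed cells. At day 21 they were 9.97, 12.1 and 12.1 CPM in control and 0.706, 0.898 and 1.19 CPM in exposed cells. The lowest control library was above the highest exposed library at each of these days, as for 11.2%, 13.9% and 15.2% of all tested genes. The log2 fold changes were -2.18 (SE 0.42, edgeR adjusted p = 0.00120) at day 6, -3.75 (SE 0.47, adjusted p = 2.14e-06) at day 15 and -3.58 (SE 0.47, adjusted p = 4.78e-06) at day 21. In bulk RNA, fewer cells with the transcript and less transcript per cell cannot be told apart.

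HNF4A was below control at all 3 collections after IL-1β was removed. At day 6 after withdrawal the levels were 9.16, 5.18 and 21.6 CPM in control and 2.73, 1.62 and 4.75 CPM in previously exposed cells. At day 15 after withdrawal they were 17.9, 13.4 and 13.8 CPM in control, without overlap with the 3.78, 1.82 and 6.47 CPM of previously exposed cells, as for 4.90% of all tested genes. At day 30 after withdrawal they were 17.8, 9.78 and 27.2 CPM in control and 4.28, 2.93 and 5.24 CPM in previously exposed cells. The control libraries were spread widely here, and those of replicates 1 and 2 at day 6 and of replicate 2 at day 30, with high mitochondrial shares, gave lower values than the third. Even so the groups did not overlap at any time. After withdrawal this held with IL-1β below control for 5.24%, 4.90% and 5.11% of all tested genes at days 6, 15 and 30. All 18 pairs of libraries were lower in the exposed one, which is a description. The HNF4A log2 fold change was below 0 at all 6 time points, as for 9.23% of all tested genes. The log2 fold changes were -1.96 (SE 0.43, edgeR adjusted p = 0.00760), -1.88 (SE 0.42, adjusted p = 0.0177) and -2.14 (SE 0.42, adjusted p = 0.00605) at days 6, 15 and 30 after withdrawal. These were 52.3%, 50.2% and 57.1% of the log2 fold change at its peak on day 15. HNF4A was 1 of 28 tested genes, or 0.146%, that were below control past both thresholds at all 6 time points.

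Without the 11 libraries of high mitochondrial share the HNF4A log2 fold changes were -2.16, -3.62, -3.52, -2.52, -1.77 and -2.22 in time order, all past both thresholds. The calls after withdrawal depended on which replicates were kept. Without replicate 1, the replicate with most libraries of low mitochondrial share, the values were -2.04, -1.71 and -2.19 after withdrawal with edgeR adjusted p of 0.433, 0.714 and 0.481, and the day 6 value of -2.11 also missed the threshold (adjusted p = 0.231). Without replicate 2 the call at day 15 after withdrawal was lost, at -1.65 (adjusted p = 0.110), and without replicate 3 all 6 calls held.

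Ordered by mean, the 12 groups ran from untreated cells of day 6 (26.4 CPM), day 15 (20.2), days 30, 15 and 6 after withdrawal (18.3, 15.0 and 11.98) and day 21 (11.4) down to the exposed cells. Neighbouring control groups overlapped in this order. Among exposed cells the order was day 6 (5.85 CPM), days 30, 15 and 6 after withdrawal (4.15, 4.03 and 3.03), day 15 (1.47) and day 21 (0.931). Only the step from day 6 to day 30 after withdrawal was free of overlap between neighbours there. The control mean itself was 26.4 CPM at day 6 and 11.4 CPM at day 21, a difference that was not tested. The response at each time is relative to the control of the same collection.

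Whether the response differed between time points was tested directly. Its change from day 6 to day 21 was -1.41 on the log2 scale for HNF4A (SE 0.61, unadjusted p = 0.0286, adjusted p = 1 by edgeR), and 0 of the 7 tested members passed, as against 0.0104% of all genes. From day 21 to day 30 after withdrawal the HNF4A response moved by 1.44 toward control (95% interval 0.19 to 2.70, unadjusted p = 0.0259, edgeR adjusted p = 0.657), and again 0 of the 7 members passed, against 0.626% of all genes. DESeq2's Wald test likewise called 0 members in both comparisons, and 1 member in each, HNF4A, had an unadjusted p under 0.05 in edgeR, as did 2.24% of all tested genes in the first and 6.05% in the second. For FOXA1 the response moved between the same days by -0.24 (95% interval -0.97 to 0.48). Within exposed cells alone, HNF4A rose from day 21 to day 30 after withdrawal by 2.13 (SE 0.47, edgeR adjusted p = 0.00402), the 1 member of 7 to do so, where 2.03% of all genes rose. Without replicate 1 that rise was 1.93 with an adjusted p of 0.326, and the untreated cells of the same collections had 11.4 and 18.3 CPM. Untreated cells of day 30 after withdrawal and of day 6 differed in 0 of the 7 members by edgeR and by DESeq2, against 0.0104% of all genes by edgeR. At an unadjusted p under 0.05 in edgeR the count was 0 of the 7 members, against 1.94% of all genes.

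HNF4G (ENSG00000164749, chromosome 8, plus strand), the second HNF4 receptor, was measured at 5 to 38 counts per library, which limits its precision. At day 6 the levels were 1.77, 2.26 and 1.48 CPM in control and 0.621, 0.804 and 0.974 CPM in exposed cells, and at day 21 1.08, 1.33 and 1.51 CPM and 0.543, 0.374 and 0.821 CPM. The groups did not overlap at days 6, 15 and 21, as held with IL-1β below control for 11.2%, 13.9% and 15.2% of all tested genes. The log2 fold changes at these days were -1.16 (SE 0.39), -0.98 (SE 0.39) and -1.12 (SE 0.39). None passed, the lowest adjusted p by edgeR being 0.0998 at day 6. Over all times 17 of 18 pairs of libraries were lower in the exposed one, which is a description. Its log2 fold change was below 0 at all 6 time points, as for 9.23% of all tested genes. After withdrawal the groups overlapped, at log2 fold changes of -0.30, -0.58 and -0.89. The last rested on the control library of replicate 2, which had a high mitochondrial share and 4.25 CPM against 1.29 and 1.43 in the other two, and without the 11 such libraries it was -0.14. Without replicate 2 the day 15 value of HNF4G was -1.55 (adjusted p = 0.0286).

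GATA6 (ENSG00000141448, chromosome 18, 19749550 to 19782491, plus strand), a zinc finger factor of endoderm and distal lung, did not pass the test at any of the 6 time points. At day 6 it was measured at 4.45, 5.22 and 4.96 CPM in control and 5.86, 5.04 and 4.97 CPM in exposed cells, and at day 21 at 4.39, 3.56 and 4.70 CPM and 3.91, 4.57 and 3.04 CPM. These groups overlapped. At day 30 after withdrawal the levels were 4.89, 7.72 and 5.66 CPM in control and 4.82, 4.62 and 3.13 CPM in previously exposed cells. The latter were all below the former, as for 5.11% of all tested genes. The log2 fold changes were 0.12, 0.28, -0.15, 0.26, 0.06 and -0.53 in time order, each with an SE of 0.24 to 0.25, and the lowest edgeR adjusted p was 0.541. For day 21 the 95% interval of -0.64 to 0.35 left out a fall of the size seen for HNF4A. Exposed libraries were lower in 9 of 18 pairs. Of the GATA6 exons, 10.9% overlap antisense genes, and reads of the strands can be told apart only if the counting used strand, which is not given in the sources used here.

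CEBPA (ENSG00000245848, chromosome 19, 33790840 to 33793440, minus strand), a factor of alveolar and hepatic maturation, was measured at 0 to 45 counts per library, and 43.9% of its exon overlaps antisense genes. At day 6 the levels were 1.24, 0.870 and 0.945 CPM in control and 0.621, 0.731 and 0.682 CPM in exposed cells, and at day 30 after withdrawal 1.24, 0 and 1.08 CPM and 1.15, 1.76 and 2.10 CPM. No time point passed, with log2 fold changes from -0.80 to 0.93 and SEs of 0.74 to 0.90. Its values also differed with the mitochondrial share. In the 11 libraries of high mitochondrial share its median was 0.203 CPM (0 to 1.76), against 1.08 CPM (0.621 to 2.10) in the other 25.

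CEBPB (ENSG00000172216, chromosome 20, 48807367 to 48809205, plus strand), the C/EBP factor of the acute phase response, had all exposed libraries above the controls on day 6. The levels were 165, 131 and 133 CPM in control and 267, 275 and 209 CPM in exposed cells, with a log2 fold change of 0.80 (SE 0.41) that did not pass (edgeR adjusted p = 0.470). In 10.6% of all tested genes the exposed libraries were likewise all above the controls at that day. At day 21 the values were 123, 133 and 132 CPM in control and 155, 134 and 147 CPM in exposed cells, with a log2 fold change of 0.17 (SE 0.41). The exposed libraries again lay above the controls, as for 13.8% of all tested genes, and at day 15 and after withdrawal the groups overlapped. CEBPB also followed the mitochondrial share, with 52.9 to 150 CPM in the 11 libraries of high share against 115 to 275 CPM in the other 25. Without the 11 libraries, the day 6 log2 fold change was 0.76 with an adjusted p of 0.0162, past the p threshold and short of the fold change, and in a fit of day 6 alone it was 0.83 (adjusted p = 0.0129). With high mitochondrial share as a covariate the day 6 value was 0.48 (adjusted p = 0.339). Over the 36 libraries, log2 CPM had a Pearson r with the mitochondrial share of -0.81 for CEBPB and -0.76 for CEBPA, given as a description.

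**Figure D3:**
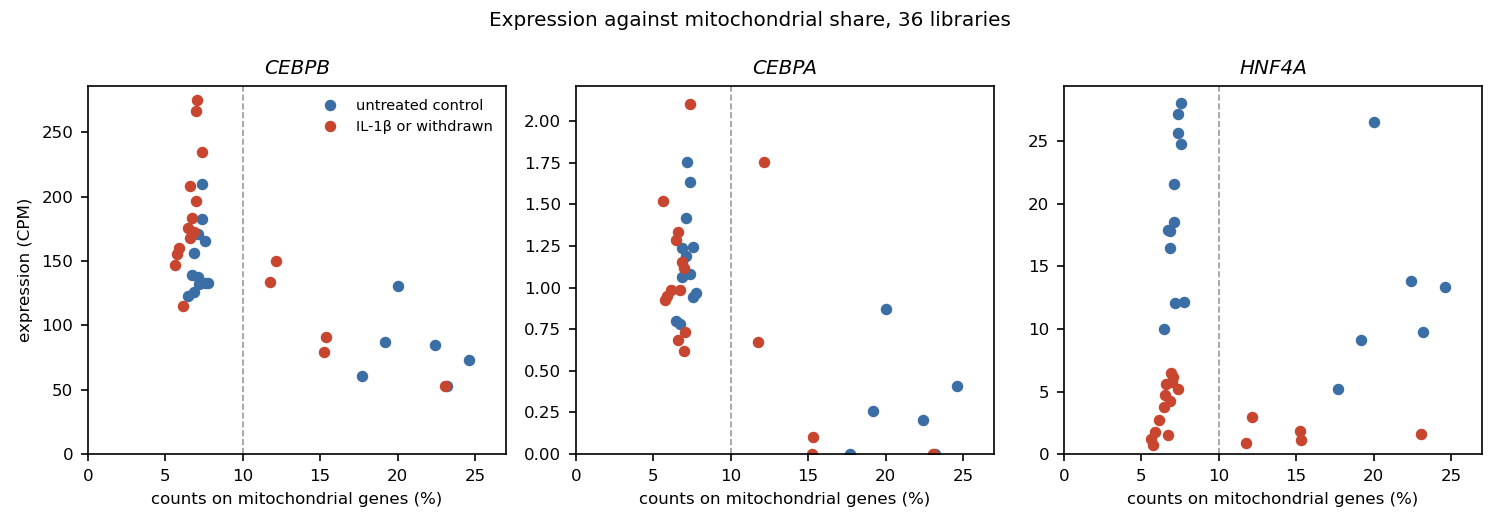
Expression in CPM (vertical axis, from 0) of CEBPB, CEBPA and HNF4A against the percentage of a library's counts on mitochondrial genes (horizontal axis), 1 point per library and 36 libraries per panel, coloured by treatment. Right of the dashed line at 10%, CEBPB lies between 52.9 and 150 CPM and the CEBPA median is 0.203 CPM, while HNF4A separates by treatment on both sides of it.

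The nearest relatives and partners of the members were followed as a list of 24 other endoderm and liver factors, of which 17 were tested. Of these, 5 fell at each of days 6, 15 and 21, 3 were lower at day 6 after withdrawal and 2 at days 15 and 30, and none rose. In time order, 1.25%, 2.30%, 2.06%, 0.725%, 0.36% and 0.464% of all tested genes were lower. With 10 counts required in every library, 10 of the 17 genes were left and 2, 2, 2, 1, 0 and 0 were called. The list's median log2 fold change was -0.44, -0.28, -0.50, -0.20, -0.46 and -0.18 in time order, against medians between -0.02 and 0.02 over all tested genes. A gene could pass the filter on low counts through control cells alone, so the list's counts and medians are given as a description.

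PPARGC1A, a coactivator of nuclear receptors including HNF4A, was lower at all 6 time points, with a log2 fold change of -3.22 (SE 0.69, edgeR adjusted p = 0.00235) at day 21 and -2.56 (SE 0.56, adjusted p = 0.0147) at day 30 after withdrawal. HHEX, ONECUT1 and NR5A2 fell at days 6, 15 and 21, and HHEX was also lower at day 6 after withdrawal (-1.15). HHEX, a homeobox factor of early liver, was at -1.70 at day 21 and -0.84 at day 30 after withdrawal on the log2 scale. ONECUT1, also named HNF6, was at -1.29 and -0.88, and for both genes the change between these times did not pass. NR5A2, an orphan receptor of liver and pancreas, was at 9.99 CPM in control and 2.60 CPM in exposed cells on day 21, and at 14.01 and 12.95 CPM at day 30 after withdrawal. It was the 1 factor of the list whose response differed between these times, by 1.84 (SE 0.32, edgeR adjusted p = 0.00206), against 1.44 for HNF4A, which did not pass. CEBPD, the third C/EBP factor of the acute phase, was at 0.82 (SE 0.28, adjusted p = 0.111) on day 6 and did not pass at any time. Without the 11 libraries of high mitochondrial share the list had 6, 5, 4, 3, 1 and 1 genes called in time order. It had 2, 2, 2, 0, 0 and 0 without replicate 1, 3, 5, 3, 3, 0 and 1 without replicate 2, and 4, 5, 4, 2, 2 and 1 without replicate 3.

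Genes that these factors are known to control in liver were read from a list of 50 hepatic secreted and metabolic genes, of which only 20 were tested in this lung line. Of these 20, 8, 10 and 10 fell at days 6, 15 and 21, and 6, 4 and 5 were lower at days 6, 15 and 30 after withdrawal, while 1 rose at each of the first 4 of these times. In time order, 1.25%, 2.30%, 2.06%, 0.725%, 0.36% and 0.464% of all tested genes were lower. A gene could pass the filter on low counts through control cells alone, so these counts are given as a description. With 10 counts required in every library, 4 of the 20 genes were left and 1, 2, 2, 1, 0 and 0 were called. The median log2 fold change of the list was -1.08, -1.48, -1.83, -0.88, -0.74 and -0.90. APOH, FGA, FGB and F5 were lower at all 6 time points. APOH, apolipoprotein H, went from 5.30 to 0.532 CPM at day 21 (log2 fold change -3.23, SE 0.48, edgeR adjusted p = 2.45e-05) and stood at 11.6 against 1.92 CPM at day 30 after withdrawal.

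The 3 fibrinogen chains all fell at days 6, 15 and 21. FGB was at the floor of 3 counts in exposed cells at days 15 and 21 and was at least 56.5-fold and 56.4-fold lower there, with the floor taken per library. FGA went from 14.1 to 0.493 CPM at day 21, and FGG was at least 4.96-fold lower. The coagulation factor F5 was at least 5.14-fold lower on day 21 and at least 10.0-fold lower at day 30 after withdrawal. TM4SF4, a membrane protein of liver and intestine, was lower at 5 time points and PROC, protein C, at 3, and F2, AMBP and ANG were lower at days 15 and 21. F7, chosen after its values were seen, was at least 3.22-fold lower at day 6. SERPINA1, alpha-1 antitrypsin and itself an acute phase protein, went the other way, from 0.208 to 3.82 CPM at day 21 (log2 fold change 4.26, SE 0.55, edgeR adjusted p = 2.93e-06). Between day 21 and day 30 after withdrawal the response of FGA moved by 2.95 (adjusted p = 0.0197) and that of FGB by 3.55 (adjusted p = 0.0249) toward control, though both stayed below it. Without the 11 libraries of high mitochondrial share the list had 8, 11, 10, 5, 1 and 4 genes called, against 9, 11, 11, 7, 4 and 5 with them. It had 4, 7, 6, 2, 2 and 1 without replicate 1, 7, 8, 8, 3, 1 and 0 without replicate 2, and 8, 7, 11, 5, 5 and 5 without replicate 3.

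**Figure D4:**
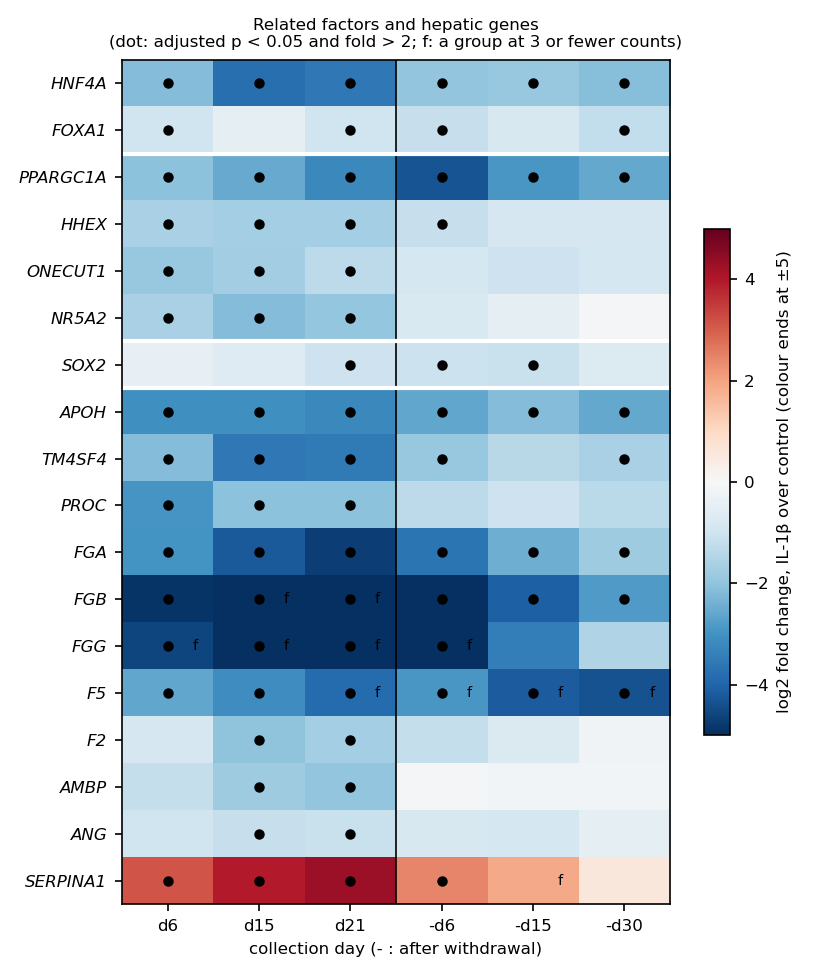
Log2 fold change of IL-1β over control (colour, blue lower and red higher, ending at ±5) for HNF4A and FOXA1, 4 related factors, SOX2 and 11 hepatic genes (rows) at the 6 time points (columns, -d marks days after withdrawal). Dots mark values past both thresholds, and the letter f marks comparisons in which 1 group was at 3 or fewer counts in each library, where the colour is a fitted value and no bound. The HNF4A, PPARGC1A, APOH, FGA, FGB and F5 rows carry dots at all 6 times.

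Partners and acute phase targets of the C/EBP factors were read from a list of 20. Of 16 tested, 6 rose at days 6 and 15 and 5 at day 21, 2 were higher at day 6 after withdrawal and 1 at days 15 and 30, and 1 fell, the stress factor DDIT3 at day 15 (-1.75, edgeR adjusted p = 0.0308), named after its value was seen. The shares of all tested genes that were higher were 1.52%, 1.94%, 2.19%, 1.08%, 0.594% and 0.433% in time order. With 10 counts required in every library, 11 of the 16 genes were left and 2, 3, 2, 1, 1 and 1 were called. IL6, the cytokine that CEBPB was first found to act on, was higher at all 6 times, with 3.24 CPM in control and 150 CPM in exposed cells on day 21. SAA1 and SAA2, serum amyloid genes, LCN2, lipocalin 2, and complement C3 rose at days 6, 15 and 21. SAA1 was at least 64.7-fold higher at day 6, where control cells were at the floor, and C3 rose from 630 to 1896 CPM. The list's median log2 fold change was 0.46, 0.43, 0.34, 0.11, 0.21 and 0.05. A gene could pass the filter on low counts through exposed cells alone, so the list's counts and medians are given as a description. Without replicate 1 the list had 4, 4, 5, 0, 0 and 0 genes called, with replicate 2 left out 5, 7, 5, 1, 0 and 0, and 6, 5, 6, 1, 0 and 1 once the 11 libraries with a high mitochondrial share were dropped.

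Among 20 lung lineage factors, of which 14 were tested, 2 were higher at day 6 and 1 at day 6 after withdrawal, where 1.52% and 1.08% of all tested genes were. At day 21 and at days 6 and 15 after withdrawal 1 was lower, where 2.06%, 0.725% and 0.36% were. SOX2, a factor of the proximal airway, was lower at day 21 (-1.04, SE 0.26, edgeR adjusted p = 0.0106) and at days 6 and 15 after withdrawal (-1.08 and -1.11). ETV4 and ETV5, ETS factors of the distal lung tip, rose at day 6 (1.21 and 1.06, adjusted p = 0.0188 and 0.00663), and FOXF1, a mesenchymal factor, was at least 2.91-fold higher at day 6 after withdrawal, where control cells were at the floor. ETV4, ETV5 and FOXF1 were named after their values were seen. The medians of the list were -0.42, 0.08, 0.09, -0.27, -0.37 and -0.25. As a gene could pass the filter on low counts through control or exposed cells alone, these are a description. Without replicate 1 the list had 0 genes called at all 6 times, without replicate 2 it had 0, 3, 0, 1, 0 and 0, without replicate 3 it had 1, 0, 1, 1, 1 and 0, and with the 11 libraries of high mitochondrial share left out it had 4, 2, 3, 2, 0 and 0 in place of 2, 0, 1, 2, 1 and 0.

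Cell type markers were read beside the members. Of 12 alveolar type II markers 5 were tested, and LPCAT1, the surfactant lipid acyltransferase, fell at day 21 (-1.09, SE 0.24, edgeR adjusted p = 0.00349), a call that was lost with any 1 of the 3 replicates left out. At day 21, 2.06% of all tested genes fell. The summed level of the 12 type II markers was 185 to 327 CPM in control and 96.4 to 242 CPM in exposed libraries of days 6 to 21. LPCAT1 gave the most counts to this sum, 124073 in all against 11864 for ABCA3, so the sum is not separate from the LPCAT1 result. A list of 12 airway and basal markers, which also holds the alveolar type I markers AGER, PDPN, CAV1 and HOPX, had 6 tested genes. Of these, the mucins MUC5B and MUC5AC fell at days 15 and 21, and MUC5B was lower at day 6 after withdrawal. At these 3 times 2.30%, 2.06% and 0.725% of all tested genes were lower. MUC5B went from 100 to 9.89 CPM at day 21 (edgeR adjusted p = 6.62e-04), and this list had 0 genes called without replicate 1 and 1 at days 15 and 21 without replicate 2. The summed level of all 12 genes of that list was 487 to 1132 CPM in control and 517 to 759 CPM in exposed libraries of days 6 to 21. CAV1 gave the most counts to this sum, 268554 in all against 80601 for MUC5B, so it is not a measure of airway or basal markers alone.

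Of the 9 tested markers of the line, 5, 6 and 6 fell at days 6, 15 and 21, 2 were lower at day 6 after withdrawal and 0 at days 15 and 30. In time order, 1.25%, 2.30%, 2.06%, 0.725%, 0.36% and 0.464% of all tested genes were lower. KRT18 went from 1582 to 426 CPM and the cadherin gene CDH1 from 197 to 41.6 CPM at day 21. At day 30 after withdrawal their log2 fold changes were -0.52 and -0.61 (adjusted p = 0.743 and 0.580 by edgeR). Without replicate 1 this list had 2, 4, 3, 0, 0 and 0 genes called, and without replicate 2 it had 0 at day 6 after withdrawal. Markers of other cell types summed to 13.6 to 29.6 CPM in control and 14.8 to 34.2 CPM in exposed libraries of days 6 to 21, and of 3 tested, the collagen gene COL1A1 rose at days 6 and 21 (1.02 and 1.24), the former lost with any 1 replicate left out or with the 11 high-share libraries dropped, and the latter lost without replicate 1. At days 6 and 21, 1.52% and 2.19% of all tested genes rose. The part of these cell type markers in the members' values was not tested.

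Across the 36 libraries, which share treatment groups, mitochondrial share and control cells, correlations of log2 CPM between members are given as a description. FOXA2 and HNF4A had a Pearson r of 0.873 and FOXA1 and HNF4A one of 0.732, and in the 25 libraries of low mitochondrial share these were 0.888 and 0.798. CEBPA and CEBPB had an r of 0.803 over all libraries and -0.07 over those 25. The genes most like HNF4A over the 36 libraries were TM4SF4 (r = 0.977), the tight junction gene CGN (0.971) and the amino acid transporter SLC7A7 (0.966). TM4SF4 is also on the hepatic list, and it went from 69.6 to 5.92 CPM at day 21 and stood at 94.8 against 31.2 CPM at day 30 after withdrawal. For FOXA1 they were KCTD3 (0.900), CADM1 (0.887), an adhesion molecule, and PPARGC1A (0.874), and for FOXA2 they included KSR1 (0.917) and DMBX1 (0.903). For HNF4G they were APOH (0.794), NCKAP5 (0.789) and INSL4 (0.786), and for GATA6 they were MAP7 (0.738), TARS3 (0.702) and SETDB2 (0.670). The genes most like CEBPA, RFXANK (0.948), PLEKHH3 (0.944) and C8orf82 (0.940), had an r of 0.502, 0.567 and 0.658 in the 25 libraries of low mitochondrial share, whereas CDC42EP2 (0.956), RNF215 (0.947) and TNFAIP2 (0.940) for CEBPB had 0.871, 0.814 and 0.791.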

How the data were processed

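RNA-seq of 36 A549 libraries was analysed from 1 table of counts per Ensembl gene for each library, as deposited by the authors, who did not normalize them. The submitters' processing notes name bcl2fastq 2.17, TopHat2 2.0.14, Bowtie2 2.2.5, HTSeq 0.6.1 and the build GRCh37, and the library kit was stranded. The strand setting of the counting and the annotation release are not given in the sources used here. Libraries were grouped by treatment and time point from their labels. Gene symbols and GRCh37 positions came from GENCODE v44 lifted to build 37, matched for 55665 of 63677 identifiers. HTSeq's summary lines were left out of library sizes: reads outside genes made up 8.48% to 18.6% and ambiguous reads 2.62% to 4.18%.

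Genes were filtered with edgeR's filterByExpr (19180 kept), scaled by TMM and fitted with edgeR 4.0.16 in R 4.3.3 by the quasi-likelihood method, with the 12 groups as terms and 24 residual degrees of freedom. IL-1β was contrasted with control at each time point, and 4 further contrasts compared times. P-values were adjusted by Benjamini-Hochberg over all tested genes, and a gene was called at an adjusted p under 0.05 with a log2 fold change beyond 1. CPM used the same scaling, log2 CPM a prior count of 2. In groups at 3 or fewer counts per library, fold changes are given as bounds from that floor, which cover counting error only. The fit was tested on simulated data with 200 changed genes. DESeq2 1.42.0 and the other alternatives are described in the closing section. Promoter sequences are RefSeq's for GRCh38.p14, used for letters alone.

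The members and gene lists were chosen with earlier results of these data known, and the lists by textbook function. All members are named, with NKX2-1 and CEBPD. From each list the genes called at 3 or more time points are named, and up to 4 more with the largest change among those called at day 21. For each tested member the 3 genes with the highest Pearson r of log2 CPM are named. Some genes that these rules name are not reported here, though the counts over the lists include them. Alternatives for the counts of called genes in the lists were chosen after seeing the data.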

Additional observations from a re-analysis of the deposited data

Results flagged for a closer look

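In 8 listed genes that are not members, the response to IL-1β was not the same on day 21 and on day 30 of withdrawal when the difference was tested directly (edgeR adjusted p under 0.05), while 0 of the 7 tested members passed. Of all tested genes, 0.73% passed on that adjusted p. On the log2 scale the response moved by 1.84 for NR5A2, 2.95 for FGA, 3.55 for FGB and 1.68 for the aldo-keto reductase gene AKR1B10, all of which were lower at day 21. It moved by -5.16 for SAA2, -3.69 for SERPINA1, -2.22 for COL1A1 and -4.77 for the prostaglandin synthase gene PTGS2. Of these, SAA2, SERPINA1 and COL1A1 were higher at day 21. These are fitted values, and FGB was at 3 or fewer counts in each exposed library of day 21, so its value is no bound. Past both thresholds, this comparison called 120 of all tested genes, but 7 without replicate 1, 29 without replicate 2 and 109 without replicate 3. The number called thus depended on which replicates were kept.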

How the results depend on the processing

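No log2 fold change of a member turned direction while called. Of 918 values of the 7 members under 14 alternatives, 874 kept their side of both thresholds, of which 42, none of them called, changed sign, 41 lost a call and 3 gained one. The number of members called at day 6 was 2, and it was 1 with no filter, total counts only, the size factors of DESeq2 and its Wald test, at least 10 counts in every library, a separate fit of each time point, the replicate number as a block, the block within time, the libraries of high mitochondrial share left out and that share as a covariate. Leaving out each replicate in turn gave 0 to 1. At day 15 the count was 1, and it was 2 with at least 10 counts in every library and with adjusted p alone, and 1 to 3 over replicates left out. At day 21 it was 2, and it was 1 with DESeq2's size factors, no filter, DESeq2's Wald test, the separate fit, the replicate block, the block within time and with the libraries of high mitochondrial share left out, and 1 over replicates left out. The calls lost at days 6 and 21 were those of FOXA1, and at day 6 without replicate 1 that of HNF4A as well. After withdrawal the counts of 2, 1 and 2 were 0 in the separate fits of 6 libraries, 0 at day 15 with total counts only, and 0 to 1 over replicates left out at each time. The rise in exposed cells from day 21 to day 30 after withdrawal had 1 call, and 0 to 1 over replicates left out. Separate fits have fewer libraries to estimate the spread and called 1, 2 and 0 of all genes after withdrawal, against 346, 183 and 172 in the joint fit, with 812 at an unadjusted p under 0.05 at day 30. Without replicate 1 all genes called at day 30 after withdrawal numbered 6, without replicate 2 25 and without replicate 3 165, and at day 15 after withdrawal 27 were called without the libraries of high mitochondrial share. The cause was not tested.

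Replicate numbers are shared between groups, and the deviations of same-numbered control and exposed libraries correlated above 0.1 in 14 of 18 pairs (mean r 0.28, from -0.34 to 0.72). Of the 36 libraries, 30 correlated best with the library of their own number, so same-numbered libraries often deviated together. The fit without the block was kept because the numbers were to count as pairs only with every pair above 0.1. With the replicate block 590, 912 and 889 genes were called at days 6, 15 and 21, against 531, 814 and 817. HNF4A kept its 6 calls under the block, with log2 fold changes between -3.69 and -1.92. Low counts limit HNF4G and CEBPA, whose SEs reach 0.41 and 0.90 on the log2 scale.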
